A study of Mus musculus with 12 samples.

Results

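Box C/D small nucleolar RNAs were examined in the adult medial prefrontal cortex of mice that had been exposed to a maternal immune challenge before birth. The members were all genes with a probe set annotated to a single symbol that starts with Snord. Where a gene had several such probe sets, the one with the highest mean over the 12 samples was used. This rule gave 30 genes, measured by 32 probe sets, of the 18820 genes that had a probe set of their own. A further 9 probe sets carried a Snord symbol together with another gene and are described separately. The genes were chosen by symbol and their probe sets by mean log2 expression, neither of which uses the difference between groups. The family as a whole, however, was selected on that difference between PolyI:C and control, which was already known. The counts and values of this contrast are therefore a description of the family, and nothing else is supported with them.

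The mothers were C57BL/6N mice that received either saline or PolyI:C intravenously at 5 mg/kg on gestation day 17. PolyI:C imitates the double-stranded RNA of viruses and provokes the mother's innate immune defence without infection. The 6 control and the 6 PolyI:C offspring were 12 weeks old, had been tested behaviourally, and have no engineered allele in the labels. RNA of each animal was hybridised to 1 Affymetrix Mouse Gene 1.1 ST array, and all values are log2 expression per probe set. Litter and sex are not named in the labels used here, so that some animals may be littermates, and the spread that p-values measure is the one among these 12 animals. The labels name kits for both 3'-end and whole-transcript labelling, with an oligo(dT) primer, which starts from poly(A) tails. Whether a Snord probe set measured the mature short RNA or a longer transcript that contains it cannot be told apart.

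Box C/D RNAs are short nucleolar RNAs named after 2 conserved sequence boxes. They bind the proteins Fbl, Nop56, Nop58 and Snu13 and pair with ribosomal RNA, where Fbl adds a methyl group to the ribose at the paired site. A few of them instead help to cut the ribosomal RNA precursor. In mice most are not transcribed from promoters of their own but are trimmed out of introns that have been spliced from a host transcript, commonly that of a ribosomal protein or of a noncoding RNA whose exons are quickly degraded. Many such hosts belong to the class of genes whose transcripts begin in a run of C and T, which links them to the control of ribosome production.

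Because the level of an intronic RNA begins with transcription of its host, start regions of hosts were examined. They were taken for 9 hosts of RNAs with a limma adjusted p under 0.05, and a part of them is shown. Each runs from 40 bases before to 20 bases after the annotated start. They come from RefSeq (GRCm38.p6), are written 5′ to 3′ on the strand of the gene, and have the longest unbroken run of C and T in capitals. The coordinates, in the same order, were chr7:45128726-45128785 on the minus strand for Rpl13a, chr3:86142649-86142708 on the minus strand for Rps3a1, and chr9:64173347-64173406 on the plus strand for Rpl4. They were chr1:86359436-86359495 on the minus strand for Ncl, chr11:62602837-62602896 on the plus strand for 2410006H16Rik, and chr1:161035126-161035185 on the plus strand for the downstream of the 2 annotated Gas5 starts.
Rpl13a: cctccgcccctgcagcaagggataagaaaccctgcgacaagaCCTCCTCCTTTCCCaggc
Rps3a1: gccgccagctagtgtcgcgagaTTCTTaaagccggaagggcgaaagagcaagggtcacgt
Rpl4: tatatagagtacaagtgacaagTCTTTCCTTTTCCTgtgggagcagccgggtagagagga
Ncl: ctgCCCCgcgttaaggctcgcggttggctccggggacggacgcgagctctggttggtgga
2410006H16Rik: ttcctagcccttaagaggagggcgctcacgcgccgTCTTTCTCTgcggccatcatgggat
Gas5: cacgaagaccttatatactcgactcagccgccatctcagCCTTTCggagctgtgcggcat

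The run was 14 bases long in Rpl13a and in Rpl4, a length reached by 3.42% of 32851 start windows of the same size. It was 9 bases in 2410006H16Rik (16.7% of windows), 6 in Gas5 (51.2%), 5 in Rps3a1 (72.1%) and 4 in Ncl (89.3%). Relative to the annotated start, the run began at position 3 in Rpl13a, inside the transcript. It began at -18 in Rpl4 and in Rps3a1 and at -37 in Ncl, and in each it ended before the start. In 2410006H16Rik it began at -5 and in Gas5 at -1, and it crossed the start. Among the starts not shown, the run was 8 bases in Gm36220 and in Rbmx, 6 in Rps3 and 4 at the upstream Gas5 start. Only the strand of the gene was searched, and the match describes letters, not a site that is used. Of the hosts shown, the pair with the longest run, Rpl13a and Rpl4, held RNAs that were lower and the one RNA that was higher, respectively.

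Of the 30 Snord genes, 14 were lower and 1 was higher after PolyI:C, and 15 did not pass an adjusted p of 0.05 (limma, Benjamini-Hochberg over 23099 probe sets). Among all probe sets tested, 0.805% were lower and 2.02% higher by the same criterion. These shares became 1.23% and 1.03% after a further quantile normalization, and 1.07% and 1.68% after centring each array on its median. The groups did not overlap for 10 of the genes that were lower and for the 1 that was higher, beside 0.636% and 1.73% of all probe sets. The mean of the PolyI:C animals was below that of the controls for 25 of 30 genes, and 21 had an unadjusted p under 0.05. The shares of all probe sets that met these criteria were not counted. The median log2 difference of the family was -0.18, against 0.0030 over all probe sets. The differences ran from -1.38 for Snord73b to 0.46 for Snord14e, which did not pass. Of the 14 genes that were lower, 12 differed by at least 1.2-fold and 2 by at least 2-fold. Without variance moderation in limma 8 were lower and 0 higher, beside 0.121% and 0.407% of all probe sets.

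**Figure D1:**
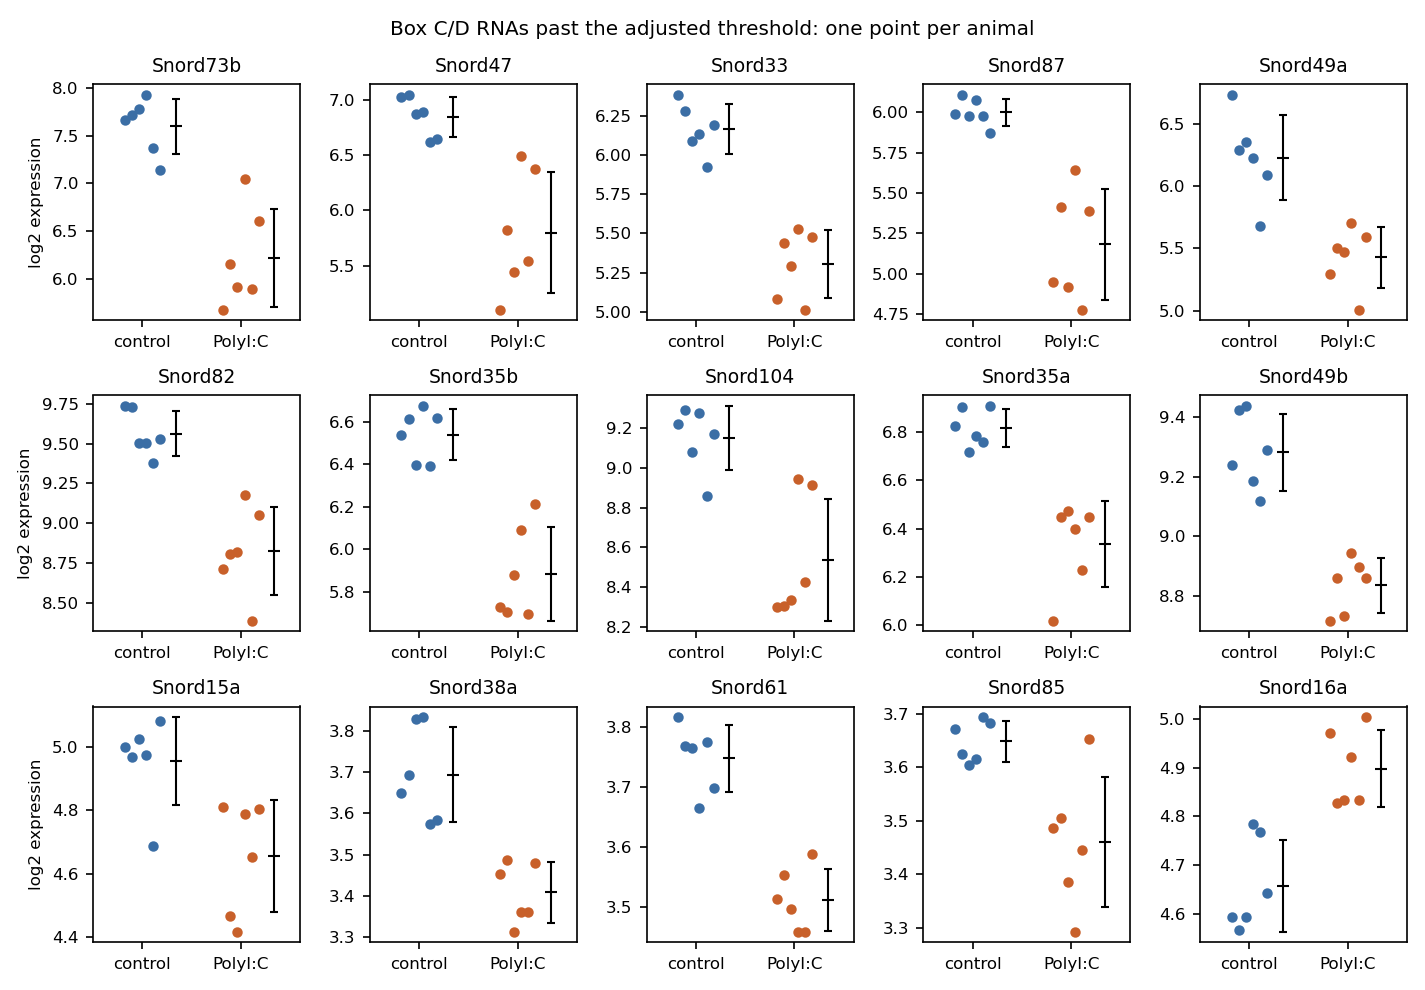
Log2 expression of the 15 box C/D RNAs past the adjusted threshold, with 1 point per animal for 6 control (blue) and 6 PolyI:C (orange) offspring; black bars give the mean and SD, and each panel has its own y axis. In 10 of the 14 panels of lower RNAs every orange point lies below every blue point, and in the Snord16a panel every orange point lies above.

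The host Rpl13a encodes a protein of the large ribosomal subunit, and its introns hold 4 box C/D RNAs that were measured here, 2 by probe sets of their own. All 4 were lower after PolyI:C. Snord33, a guide for methylation of small-subunit rRNA, ranged from 5.92 to 6.38 in controls (median 6.16) and from 5.01 to 5.53 in PolyI:C animals (median 5.37). Every PolyI:C animal was below every control. Its mean went from 6.16 ± 0.16 to 5.30 ± 0.22 (SD, n = 6 each), a difference of -0.86 ± 0.09 (SE, 1.81-fold; limma adjusted p = 0.00040). Snord35a, a guide for large-subunit rRNA, ranged from 6.72 to 6.91 in controls (median 6.80) and from 6.02 to 6.48 after PolyI:C (median 6.42), again without overlap. The difference was -0.48 ± 0.07 (1.40-fold; limma adjusted p = 0.0027).

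The other two RNAs of this host were measured by probe sets that also carry the Rpl13a symbol. Snord32a ranged from 7.12 to 7.50 in controls (median 7.34) and from 6.14 to 6.72 in PolyI:C animals (median 6.34). The difference was -0.95 ± 0.08 (1.94-fold; limma adjusted p = 4.3e-05), and the groups did not overlap. Snord34 ranged from 5.34 to 5.81 in controls (median 5.68) and from 4.33 to 5.06 after PolyI:C (median 4.85), also without overlap, with a difference of -0.91 ± 0.11 (1.88-fold; limma adjusted p = 0.0011). The host itself gave no such difference: its brightest probe set for Rpl13a alone differed by -0.043 ± 0.043 and the second by -0.030. The 4 RNAs share 1 primary transcript and are not independent of each other.

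Snord73b, a guide for large-subunit rRNA that lies in an intron of Rps3a1, had the largest decrease of the family. Its controls ranged from 7.14 to 7.92 (median 7.69) and its PolyI:C animals from 5.68 to 7.04 (median 6.03). The highest PolyI:C animal was just below the lowest control. The mean fell from 7.60 ± 0.29 to 6.21 ± 0.51, a difference of -1.38 ± 0.19 (2.61-fold; limma adjusted p = 0.0027). Snord73a, which lies in the same host, differed by -0.046 ± 0.030 (limma adjusted p = 0.422), but its probe set was dim, with a mean of 3.28. The host Rps3a1, a protein of the small ribosomal subunit, differed by -0.020 ± 0.035, with 3 probe sets between -0.023 and -0.017.

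The controls of Snord35b, a relative of Snord35a, ranged from 6.39 to 6.67 (median 6.58) against 5.69 to 6.21 after PolyI:C (median 5.80). The groups did not overlap, and the difference was -0.65 ± 0.08 (1.57-fold; limma adjusted p = 0.0018). Snord38a, a guide for large-subunit rRNA, was dim. Its controls ranged from 3.57 to 3.83 (median 3.67) and its PolyI:C animals from 3.31 to 3.49 (median 3.41). The difference was -0.28 ± 0.05 (1.22-fold; limma adjusted p = 0.011), without overlap. Snord55 was brighter, with a mean of 6.16, and differed by -0.070 ± 0.039 (limma adjusted p = 0.337).

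Snord15a, in Rps3, ranged from 4.69 to 5.08 in controls (median 4.99) and from 4.42 to 4.81 after PolyI:C (median 4.72). The groups overlapped through control 5, which lay within the PolyI:C range. The difference was -0.30 ± 0.08 (1.23-fold; limma adjusted p = 0.0448). This call rested on the full set of animals: it was lost in 10 of 12 fits that left out 1 animal, all but those without control 5 or PolyI:C 6, with a highest adjusted p of 0.0927 (limma). It was also lost with all rows of the table tested (limma adjusted p = 0.088) and without moderation (0.133). Its family member Snord15b, in the same host, differed by -0.19 ± 0.08 (limma adjusted p = 0.218) and was brighter, with a mean of 6.90. Rps3 differed by -0.039 ± 0.038.

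Of the 12 members in ribosomal protein genes as a group, 6 were lower, 1 was higher and 5 did not pass, with a median difference of -0.24. Of the 7 members in noncoding hosts, 5 were lower and the other 2 did not pass, with a median of -0.61. Of the 10 in other protein-coding genes, 3 were lower and 7 did not pass, with a median of -0.12. The differences between these kinds of host were not tested.

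Snord47 lies in an intron of Gas5, a spliced RNA whose introns hold several box C/D RNAs. Its controls ranged from 6.62 to 7.04 (median 6.88) and its PolyI:C animals from 5.10 to 6.49 (median 5.68). The groups did not overlap, and the PolyI:C animals were spread more widely, with means of 6.85 ± 0.18 and 5.80 ± 0.55. The difference was -1.05 ± 0.18 (2.07-fold; limma adjusted p = 0.011). Gas5 was the one measured host that was itself lower. Its brightest probe set (10351037) fell from 8.13 ± 0.07 to 7.34 ± 0.25, a difference of -0.78 ± 0.08 (limma adjusted p = 0.00052). Its other 3 probe sets had means higher after PolyI:C, by 0.078 to 0.22, and did not pass (limma adjusted p from 0.122 to 0.288). Which exons or introns each of the 4 reads is not given in the files.

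Snord87, in the noncoding Snhg6, ranged from 5.87 to 6.11 in controls (median 5.99) and from 4.78 to 5.64 after PolyI:C (median 5.17). The groups did not overlap, and the difference was -0.82 ± 0.12 (1.76-fold; limma adjusted p = 0.0029). The noncoding gene 2410006H16Rik, whose start is shown above, holds a pair of related RNAs. Snord49a ranged from 5.68 to 6.73 in controls (median 6.26) and from 5.01 to 5.70 in PolyI:C animals (median 5.48). The ranges overlapped by 1 animal on each side, control 5 and PolyI:C 4, and the difference was -0.80 ± 0.14 (1.74-fold; limma adjusted p = 0.0100).

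Snord49b was brighter and tighter, from 9.12 to 9.44 in controls (median 9.26) and from 8.72 to 8.95 after PolyI:C (median 8.86). It did not overlap between groups, with a difference of -0.45 ± 0.06 (1.36-fold; limma adjusted p = 0.0016). Snord104, a guide for large-subunit rRNA in the noncoding Gm36220, ranged from 8.86 to 9.29 in controls (median 9.19) and from 8.30 to 8.94 after PolyI:C (median 8.38). Control 5 lay below PolyI:C 4 and 6, while the other 4 PolyI:C animals were below every control. The difference was -0.61 ± 0.11 (1.53-fold; limma adjusted p = 0.013). The remaining members in noncoding hosts, Snord22 in Snhg1 and Snord52 in 1110038B12Rik, differed by -0.10 ± 0.06 and -0.07 ± 0.04 and did not pass. Snord22 is known for its part in cutting the rRNA precursor.

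Snord82 lies in the gene of nucleolin (Ncl), an abundant nucleolar protein, and was the second brightest member. Its controls ranged from 9.37 to 9.73 (median 9.51) and its PolyI:C animals from 8.39 to 9.18 (median 8.81). No PolyI:C animal reached the control range. The mean fell from 9.56 ± 0.14 to 8.82 ± 0.28, a difference of -0.74 ± 0.10 (1.67-fold; limma adjusted p = 0.0027). Ncl, by its brightest probe set, differed by 0.025 ± 0.034, and by -0.085 on its second.

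Snord61, in the gene of the RNA-binding protein Rbmx, was dim and changed little in size but without overlap. It ranged from 3.66 to 3.82 in controls (median 3.77) and from 3.46 to 3.59 after PolyI:C (median 3.51), a difference of -0.24 ± 0.03 (1.18-fold; limma adjusted p = 0.0036). Rbmx differed by 0.11 ± 0.05 (limma adjusted p = 0.263). Snord85, another dim member, ranged from 3.60 to 3.69 in controls (median 3.65) and from 3.29 to 3.65 after PolyI:C (median 3.47). Of the PolyI:C animals 5 were below every control and PolyI:C 6 was within their range. The difference was -0.19 ± 0.05 (1.14-fold; limma adjusted p = 0.0445). This call too was lost in 10 of 12 fits that left out 1 animal, all but those without PolyI:C 2 or PolyI:C 6 (highest limma adjusted p = 0.0891). It was also lost with quantile normalization (adjusted p = 0.053 in limma), with all rows of the table (0.081), without moderation (0.112) and without controls 5 and 6 (0.115).

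Snord16a, a guide for small-subunit rRNA in an intron of Rpl4, was the only member that was higher. Its controls ranged from 4.57 to 4.78 (median 4.62) and its PolyI:C animals from 4.83 to 5.00 (median 4.88), without overlap. The mean rose from 4.66 ± 0.09 to 4.90 ± 0.08, a difference of 0.24 ± 0.05 (1.18-fold; limma adjusted p = 0.014). Rpl4 differed by -0.040 ± 0.027.

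The RNAs of the Snord14 family assist in cutting the small-subunit rRNA precursor as well as in methylation, and several lie in introns of Hspa8, a constitutive heat-shock chaperone. Snord14e ranged from 5.52 to 6.13 in controls (median 5.88) and from 5.97 to 6.82 after PolyI:C (median 6.20). All 6 PolyI:C animals were above the control mean and 4 were above every control, but the difference of 0.46 ± 0.13 did not pass (limma adjusted p = 0.0612). The probe sets shared by Snord14d, Snord14c and Hspa8 ranged from 6.01 to 6.51 in controls (median 6.29) and from 6.37 to 7.20 after PolyI:C (median 6.76). There were 2 of them with nearly the same values in every animal, counted here as 1 measurement, with a difference of 0.54 ± 0.13 and an overlap between groups (limma adjusted p = 0.037). That call was lost without any one of controls 1, 2 and 6 and PolyI:C 1, 4 and 5, with adjusted p up to 0.0895. It was also lost with all rows of the table, with trend and robust variance, without moderation and without controls 5 and 6 (limma adjusted p from 0.081 to 0.131). Hspa8 by its own probe sets differed by -0.0053 to 0.027. The copies of this family are closely alike, and whether a probe set reads only the copy it is named after is not given in the files; the same applies to the a and b forms of Snord15, Snord35, Snord49 and Snord73.

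**Figure D2:**
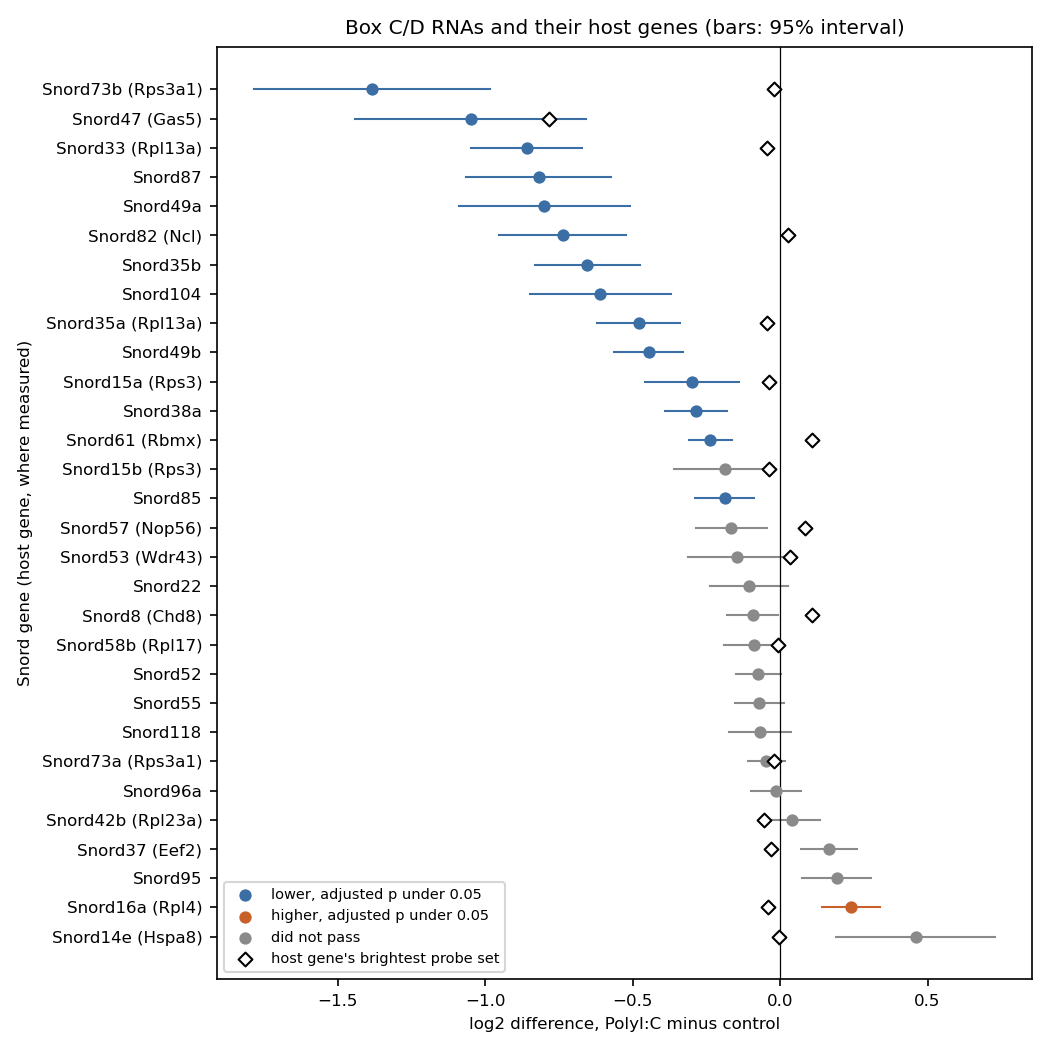
Log2 difference, PolyI:C minus control, of each of the 30 box C/D RNAs with its 95% confidence interval (circle and bar), and of its host gene's brightest single-gene probe set (open diamond, drawn and named in brackets for the 17 RNAs with a measured host). Blue marks lower, orange higher and grey not past the adjusted threshold; the diamonds lie between -0.054 and 0.11 except for Gas5 at -0.78.

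The members lay in 23 host genes, apart from 1 without a host, and 14 of the hosts had a probe set of their own. Over these 14, each by its brightest probe set, the median difference was -0.014, and 1 passed, Gas5. Only 1 of the 4 Gas5 probe sets passed, and their differences ran from -0.78 to 0.22. The 14 RNAs that were lower lay in 12 hosts, of which 6 were measured (Rps3a1, Rpl13a, Ncl, Rps3, Rbmx and Gas5) for 7 of the RNAs. For 6 of these 7 RNAs the host did not pass, with host differences from -0.043 to 0.11. The difference between RNA and host was not tested as such. Chd8, the host of Snord8, was a measured host whose groups did not overlap, with higher values after PolyI:C, but its difference of 0.11 ± 0.03 did not pass (limma adjusted p = 0.0701). Snord8 differed by -0.09 ± 0.04. The files do not say whether the probes of a host lie in its exons or its introns. Host probe sets were matched by gene identifier, and whether each lies at the locus that holds the RNA was not checked.

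Hosts with several members showed no single pattern. Both RNAs with their own probe set in Rpl13a were lower, as were both in 2410006H16Rik. In Rps3a1 and in Rps3, 1 of 2 was lower and the other did not pass. In Rack1, neither Snord95 (0.19 ± 0.06; limma adjusted p = 0.0681) nor Snord96a (-0.014 ± 0.040) passed.

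Among the members that did not pass, Snord57 was the brightest of all 30 and lies in Nop56, the gene of a box C/D core protein. It ranged from 9.32 to 9.60 in controls (median 9.53) and from 9.16 to 9.47 after PolyI:C (median 9.31). All 6 PolyI:C animals were below the control mean, but the groups overlapped and the difference was -0.17 ± 0.06 (limma adjusted p = 0.122). Snord37, in the elongation factor gene Eef2, was dim and came closest to the threshold, with 2.95 to 3.22 in controls (median 3.09) and 3.15 to 3.36 after PolyI:C (median 3.23). Its difference of 0.16 ± 0.04 had a limma adjusted p of 0.0575, and 5 of 6 PolyI:C animals were above every control.

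Snord118, also called U8, is needed to cut the large-subunit rRNA precursor and is transcribed from its own promoter rather than from a host. It ranged from 3.80 to 4.15 in controls (median 4.01) and from 3.85 to 4.04 after PolyI:C (median 3.92). The difference was -0.07 ± 0.05, with a 95% interval from -0.18 to 0.037 (limma adjusted p = 0.473), and its second probe set held identical values. Of the remaining members, Snord53 in Wdr43 differed by -0.15 ± 0.08, Snord58b in Rpl17 by -0.09 ± 0.05 and Snord42b in Rpl23a by 0.039 ± 0.046. For each of these the groups overlapped.

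**Figure D3:**
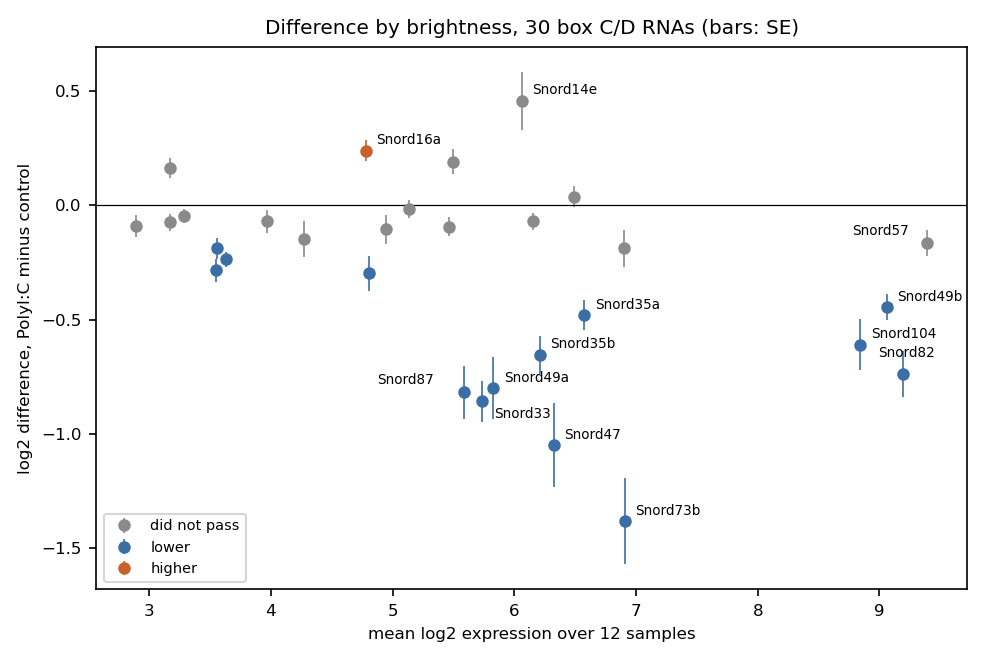
Log2 difference, PolyI:C minus control, against mean log2 expression over 12 samples for the 30 box C/D RNAs, with bars of 1 SE. Blue marks lower, orange higher and grey not past the adjusted threshold; among the 10 brightest RNAs 7 are lower, against 3 among the 10 dimmest.

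More of the bright members than of the dim ones were lower. The 10 dimmest members, with means from 2.89 to 4.78, held 3 that were lower and the 1 that was higher, and their median difference was -0.08. The 10 in the middle, from 4.81 to 6.16, held 4 that were lower, with a median of -0.10. The 10 brightest, from 6.21 to 9.39, held 7 that were lower, with a median of -0.55. Whether dim members changed less was not tested. Over the array, 1.52% of probe sets were lower in the brighter part (50th percentile upward, fitted alone), against 0.805% of all. The share that was higher was 6.0% in that part, against 2.02% of all. The same brightness groups were not counted over all probe sets, so the gradient is not shown to be particular to the Snord genes. In each brightness group some members did not pass. Annotated RNA length did not separate the members: the lower ones had a median of 69.5 bases and those that did not pass 68 bases.

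**Figure D4:**
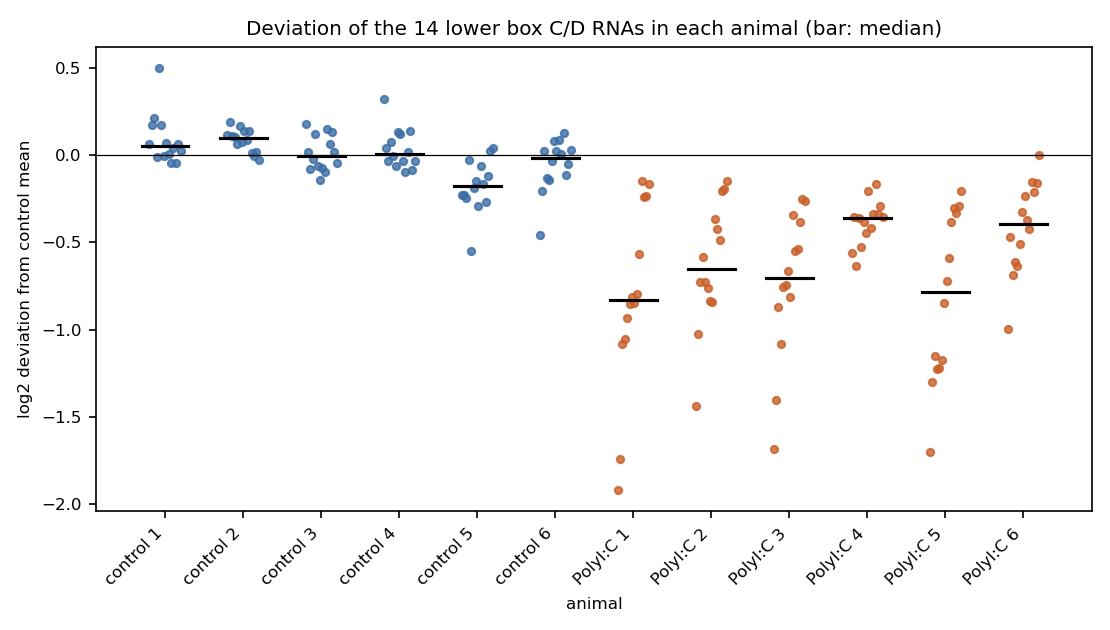
Deviation of each of the 14 lower box C/D RNAs from its control mean (log2), 1 column per animal, with 6 controls in blue and 6 PolyI:C offspring in orange; the black bar is the median of the 14. The medians of the PolyI:C animals lie between -0.83 and -0.36 and those of the controls between -0.18 and 0.098.

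The animals did not contribute equally to the decrease. Over the 14 lower RNAs, the median deviation from the control mean was -0.83 in PolyI:C 1, -0.78 in PolyI:C 5, -0.70 in PolyI:C 3 and -0.65 in PolyI:C 2. It was smaller in PolyI:C 6 (-0.40) and PolyI:C 4 (-0.36), and PolyI:C 4 was the highest of its group for 8 of the 14. Among the controls, animal 5 was the lowest for 9 of the 14 and had a median deviation of -0.18. In 13 of the 14 RNAs all 6 PolyI:C animals were below the control mean, and for Snord85 it was 5. The 14 RNAs were taken for being lower in these same animals, so that this count follows largely from the choice. The SD was larger in the PolyI:C group for 10 of the 14, and for 9 of the 15 that did not pass. As the RNAs of 1 animal share its array and dissection, these counts describe animals and not independent measurements.

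**Figure D5:**
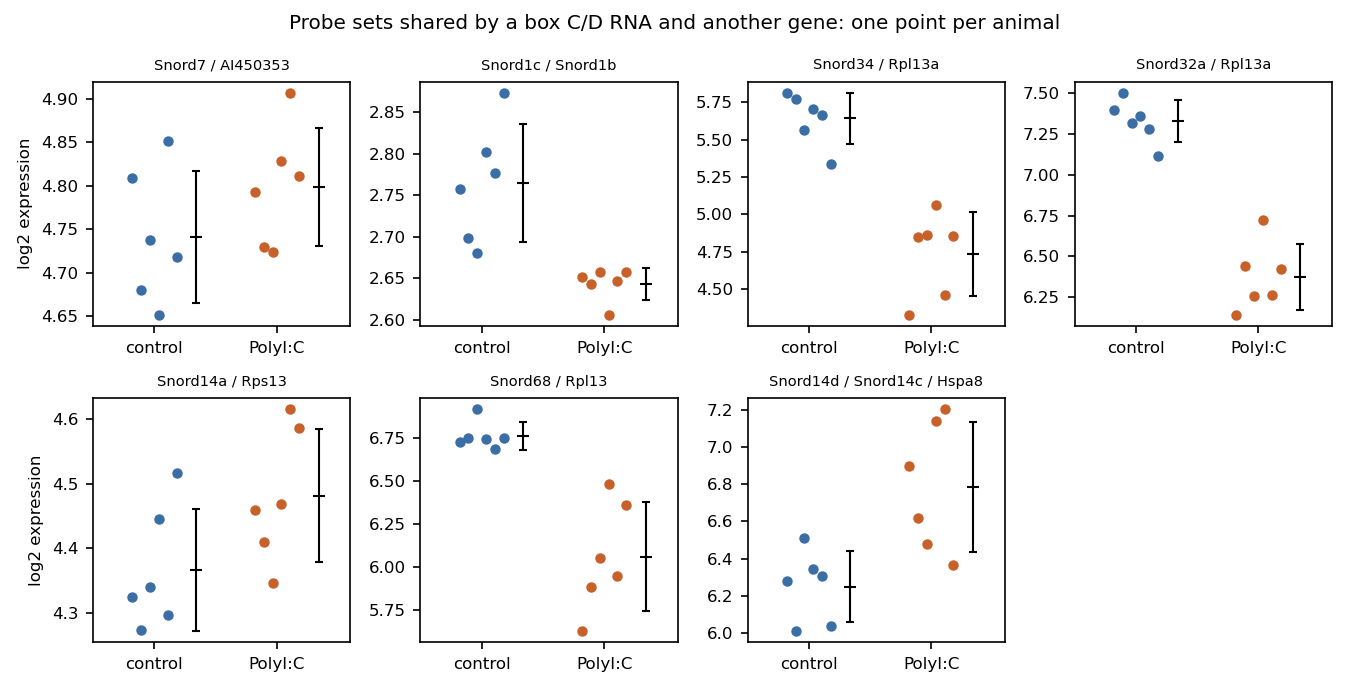
Log2 expression of the probe sets that carry a Snord symbol with another symbol, 1 point per animal for 6 control (blue) and 6 PolyI:C (orange) offspring, with mean and SD; where 2 probe sets carry the same symbols 1 is drawn, and each panel has its own y axis. The Snord34, Snord32a, Snord68 and Snord1c panels separate downward, though Snord1c did not pass the adjusted threshold. The Snord14d panel shifts upward with overlap.

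Of the 9 shared probe sets, 8 were distinct after an identical copy was counted once. Beside the Rpl13a and Hspa8 ones above, the probe set shared by Snord68 and Rpl13 was lower. It ranged from 6.69 to 6.92 in controls (median 6.75) and from 5.62 to 6.48 after PolyI:C (median 6.00), without overlap. The difference was -0.70 ± 0.11 (1.63-fold; limma adjusted p = 0.0048), while the 9 probe sets of Rpl13 alone differed by -0.095 to -0.037. The probe set of Snord1c and Snord1b, the dimmest, did not overlap between groups but did not pass (-0.12 ± 0.03; limma adjusted p = 0.0613). Those of Snord14a with Rps13 (0.11 ± 0.05) and of Snord7 with AI450353 (0.058 ± 0.041) did not pass.

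The genes of proteins that carry or process box C/D RNAs gave no call. The list held 19 genes for box C/D proteins, assembly factors and RNA-processing enzymes (among them Exosc10, Xrn2 and Tgs1). Of these, 15 were measured, 0 passed in limma and 2 (Nop56 and Xrn2) had an unadjusted p under 0.05. Their differences ran from -0.054 to 0.089, with a median of 0.016. The methyltransferase Fbl was at 7.25 in controls and 7.27 after PolyI:C (0.016 ± 0.034; limma adjusted p = 0.842). Nop56 differed by 0.083 ± 0.033 (limma adjusted p = 0.177), Nop58 by 0.036 ± 0.059 (limma adjusted p = 0.782) and Snu13 by 0.0075 ± 0.032 (limma adjusted p = 0.927).

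The H/ACA RNAs, which guide pseudouridylation rather than methylation, and the scaRNAs of Cajal bodies were set beside the box C/D family as the closest class. Of 29 such genes 3 were lower (10.3%, against 46.7% of the Snord genes) and 1 was higher, and their median difference was -0.073. The 3 were Snora61 (-0.36 ± 0.07), Snora7a (-0.30 ± 0.06) and Snora62 (-0.27 ± 0.06), and the higher one was Snora23 (0.35 ± 0.05). Over all 29 genes, 20 means were below the controls and 9 genes had an unadjusted limma p under 0.05. Their median standard error was 0.067, against 0.057 for the Snord genes. Snora62 was lost without PolyI:C 1 (limma adjusted p = 0.0564), without controls 5 and 6 (0.0512) and with all rows of the table (0.0550). Without moderation all 3 were lost (limma adjusted p from 0.0789 to 0.0866). The 2 classes were not compared by a test.

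Other features of the tissue moved with the groups. Markers of myelin and mature oligodendrocytes were lower in 5 of 11 measured genes, beside 0.805% of all probe sets. All 11 means were below the controls, all 11 had an unadjusted limma p under 0.05, and their median difference was -0.34. Their summed level (log2 of the summed signal) was 11.10 to 11.47 in controls and 10.63 to 11.15 after PolyI:C. Of 7 measured markers of striatal neurons, a neighbouring tissue, 1 was lower, 5 had an unadjusted limma p under 0.05 and all 7 means were below. Their summed levels were 9.91 to 10.63 in controls and 9.86 to 10.04 after PolyI:C. The 7 neuronal markers had means from 8.50 to 11.6 and 0 passed, and their summed level was 13.51 to 13.55 in controls and 13.52 to 13.56 after PolyI:C. Of the 7 astrocyte, 7 microglial and 6 endothelial markers 0 passed in limma and 0 had an unadjusted p under 0.05. The part of cell composition in the Snord values was not tested, and in bulk tissue fewer cells of a type and less RNA per cell cannot be told apart. The summed striatal level was highest in control 5 (10.63) and control 6 (10.47).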

How the data were processed

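Per the labels' protocols, a Qiagen AllPrep kit gave the RNA of 6 control and 6 PolyI:C medial prefrontal cortices, of which 250 ng was used. What the authors deposited is, judged from its range, log2 expression of each probe set. The submitters' processing notes list Partek 6.6 and RMA with no role or order. If the arrays were quantile-normalized, as RMA usually does, their distributions were made alike (array medians 5.15 to 5.21). No source used here gives the genome build or the annotation. The number of arrays limits the precision.

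Of 35556 probe sets, 21218 carried 1 gene symbol, 1881 several and 12457 none in the platform annotation. The 23099 with a gene were fitted in R 4.3.3 with limma 3.58.1 (lmFit, then eBayes), PolyI:C minus control, two-sided, with Benjamini-Hochberg adjustment over all of them and a threshold of 0.05. Errors of differences are moderated standard errors. The fit was tested on simulated data. The members and lists were chosen with earlier results of these data known. All 30 members matched the RefSeq gene table, and hosts were taken as the gene that contains the member there, or from a hand list for Snord87, Snord47 and Snord8. That table gives no strand. The names of some hosts are not reported here.

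Members past the threshold were named with values, and of the rest the 4 with the lowest p (Snord37, Snord14e, Snord95 and Snord57). The text gives short values for the others. Brightness groups hold 10 members each. Alternatives covered normalization, centring, array weights, a replicate block, brightness filters, the rows tested, variance moderation, the choice of probe set and leaving out animals. Replicate numbers were checked and did not pair the samples. Tables and plots were made in Python 3.11.15 with pandas 2.3.3, scipy 1.17.1 and matplotlib 3.10.9.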

Additional observations from a re-analysis of the deposited data

Results flagged for a closer look

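In 9 of 116 groups of 6 animals tested, the highest or lowest animal stood apart from its nearest neighbour by more than a Dixon test at the 95% level allows. Chance flags about 1 in 20 groups. Among the members, control 5 was lowest for Snord15a at 4.69 (next 4.97), control 6 was highest for Snord53 at 4.51 (next 4.34), and control 4 was highest for Snord58b at 3.09 (next 2.93). Without control 5 the Snord15a call held.

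Among the shared probe sets, PolyI:C 4 was lowest for Snord1c with Snord1b at 2.61 (next 2.64), and control 3 was highest for Snord68 with Rpl13 at 6.92 (next 6.75). Among the hosts, control 5 was highest for the brightest Gas5 probe set at 8.26 (next 8.12) and control 2 lowest for Gas5 probe set 10351035 at 3.97 (next 4.29). PolyI:C 1 was highest for Nop56 at 8.82 (next 8.76), and PolyI:C 3 lowest for Rpl13 at 7.80 (next 7.89).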

How the results depend on the processing

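No result past the threshold changed direction under any alternative. The count of lower Snord genes was 14 of 30 and stayed between 12 and 14, with the following exceptions. It was 11 of 21 genes among probe sets from the 25th percentile of brightness upward, where Snord38a, Snord61 and Snord85 were not tested. It was 8 of 13 genes in the brighter part of the array (50th percentile upward), where fewer genes were tested. There 1.52% of the probe sets were lower and 6.0% higher. Without variance moderation it was 8 of 30, beside 0.121% of all probe sets, and the cause of that drop was not tested. Leaving out each animal in turn gave 12 to 14. The count of higher Snord genes, 1 as reported, was 2 with quantile normalization, with array weights, with trend and robust variance and without controls 5 and 6, and 0 without moderation (limma, with Snord16a lost). From the 50th percentile upward the count was also 1, but the gene was Snord14e, as Snord16a was too dim to be tested there. Leaving out each animal gave 1 to 2. With the replicate block it was 3 (Snord14e, Snord16a and Snord37) and the lower count stayed at 14; as the numbers do not pair the animals (correlations of deviations from -0.0922 to 0.11), this is only another fit. The median difference of the family was -0.48 in that brighter part and -0.20 to -0.15 with an animal left out. Without moderation the calls lost were Snord104, Snord15a, Snord38a, Snord47, Snord49a and Snord85, and without control 5 Snord15b was gained. Among values close to 0 that had not passed, some changed sign. With quantile normalization Ncl was at -0.0034, Wdr43 at -0.0013, Snu13 at -0.011 and Fbl at -0.018, and with array weights Snu13 was at -0.0031. Without controls 5 and 6 Rpl13a was at 0.013, Rpl17 at 0.0075 and Rps3a1 at 0.0073. Leaving out each animal gave -0.019 to 0.0042 for Hspa8, -0.018 to 0.00096 for Rpl17, -0.0075 to 0.021 for Snu13 and -0.0084 to 0.029 for Fbl, and Snord96a was at 0.0018 without control 5 and 0.011 without PolyI:C 6. The causes were not tested. Signal over background was not measured, so dim members have no detection limit here.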
